A study of Mus musculus with 32 samples.

Results

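The comparison described here is that of established atrophy late and early, gastrocnemius (GAS) muscle at 28 d against GAS muscle at 14 d after the sciatic nerve was cut. It used 8 of the 32 samples of the series, 4 at each of these days, and genes were kept where 4 or more of the 8 samples reached an FPKM of 0.1, which left 18653 of the 33397 genes in the table. FPKM, the unit deposited by the authors, is a fragment count already scaled for exon length and sequencing depth. The series follows GAS muscle over 8 time points from 0 to 28 d, and the other time points served here as background levels. Those other time points entered no fit except an alternative one of all 32 samples. The labels give the strain as C57BL/6, and the study's methods give C57BL/6J males aged 6-8 weeks whose left sciatic nerve had a small section removed. The labels list the nerve transection for every sample, day 0 included, while the methods also describe sham operated mice. The 4 columns that name no day were taken as the day 0 samples. The columns are tied to no individual animal, so the p-values measure only the spread between these samples.

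Skeletal muscle that has lost its nerve stops contracting and loses protein. The loss runs largely through the ubiquitin-proteasome system, in which muscle ligases such as MuRF1 tag proteins for breakdown, and through autophagy. The muscle also takes on gene programmes set by innervation: acetylcholine receptors reappear along the fibre, myogenic factors return, and the isoforms of the sarcomere change. The GAS of the mouse is mainly a fast muscle with a small share of slow fibres, and fast and slow fibres carry different isoforms of myosin, troponin, tropomyosin and the calcium pump.

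The 8 samples held 16533921 to 17561680 fragments, with a median of 17196822.5 at 14 d and 16796421.5 at 28 d. Pearson's r across 12223 genes, which are not independent replicates, was 0.983 to 0.992 for pairs of the same day and 0.979 to 0.988 for pairs of different days. No pair of samples agreed within sampling noise. Genes of the mitochondrial genome took 7.27% to 9.28% of the fragments at 14 d and 9.34% to 11.7% at 28 d, so these ranges did not overlap. The extraction text in the labels speaks of retinas, and the tissue was therefore checked. The 10 muscle markers summed to 36810 to 39280 FPKM at 14 d and 32540 to 35760 at 28 d, whereas the 8 retina markers in the table summed to at most 0.547 in any of the 8 samples. None of the muscle markers was called, and the only retina marker that passed the filter, Opn1sw, was not called either.

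Between 14 and 28 d, 203 genes (1.09% of those tested) passed limma's test at a Benjamini-Hochberg adjusted p under 0.05 with a change of at least 1.5-fold. Of these, 106 (0.568%) were higher and 97 (0.52%) lower at 28 d. The genes that rose were led by parts of the slow-fibre sarcomere, and those that fell included Tmem100, Cdkn1a and the ubiquitin ligase gene Trim63, beside short RNAs with few fragments. In all 203 the 4 samples of one day lay wholly above the 4 of the other. Such separation occurred in 5.02% of all tested genes upward and 6.65% downward. At an unadjusted p under 0.05, limma counted 1378 genes higher and 1845 lower. The median log2 fold change over all tested genes was -0.009. Fold changes were taken from log2(FPKM + 1), and the added 1 makes the change of weakly expressed genes look smaller than it is. In bulk tissue, fewer cells or fibres of a type and less RNA per cell cannot be told apart.

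**Figure D1:**
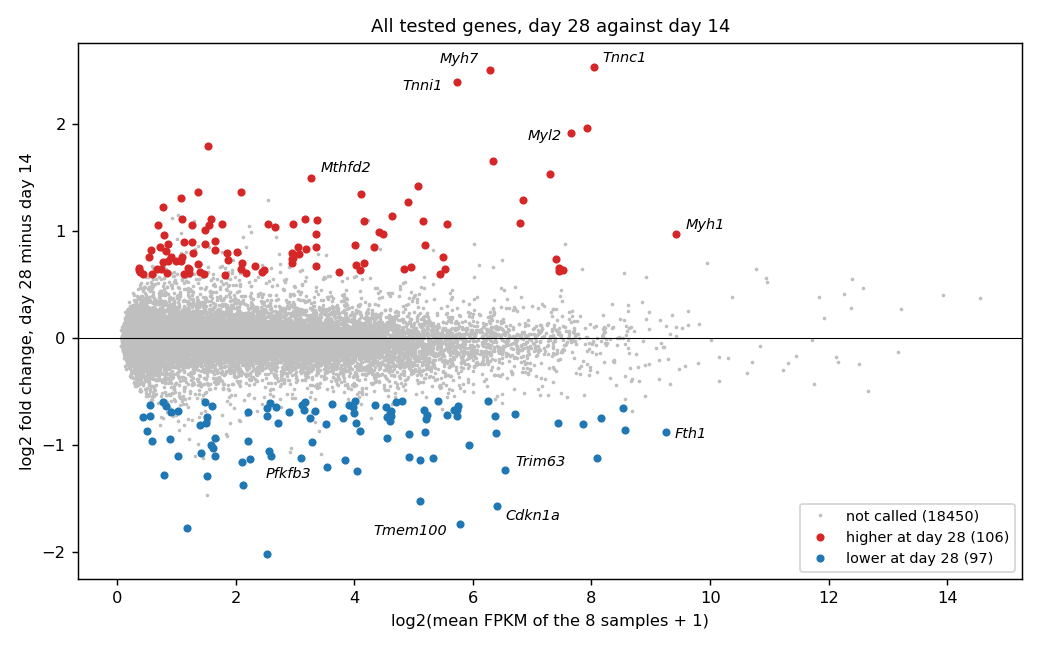
Log2 fold change (28 d minus 14 d) of each tested gene against its mean level in the 8 samples, on the log2(FPKM + 1) scale. Red points are the 106 genes higher and blue points the 97 genes lower at 28 d, with the slow-fibre genes Tnnc1, Myh7 and Tnni1 at the top.

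The level at 21 d, which did not enter the main fit, was set beside these genes. The mean at 21 d lay between the means of 14 and 28 d for 87 of the 106 genes that rose, and for 79 of the 97 that fell. These genes were picked for a difference between 14 and 28 d, which by itself favours a mean at 21 d in between. No share for the other tested genes stands beside these counts. On the log2 scale it was nearer to 14 d for 70 of the genes that rose (66.0%). Among those that fell it was nearer to 28 d in 79 (81.4%).

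All 3 slow troponin genes rose. Tnnc1 encodes the calcium-binding troponin C of slow and cardiac muscle. Its FPKM was 98.0, 168, 30.9 and 53.2 in samples a to d of 14 d, and 575, 480, 375 and 309 in samples a to d of 28 d. The lowest sample of 28 d lay above the highest of 14 d, and the ratio of the means was 4.98 with a log2 fold change of 2.53 (SE 0.45, limma adjusted p = 0.0208). Tnni1, the slow inhibitory subunit, had 18.0, 31.4, 7.49 and 12.1 FPKM at 14 d and 120, 97.7, 64.0 and 65.8 at 28 d. The groups again did not overlap, and Tnni1 rose by 2.39 on the log2 scale (SE 0.38, limma adjusted p = 0.0123). Tnnt1, the slow subunit that binds tropomyosin, rose from 106 ± 54.6 to 380 ± 88.1 FPKM (SD, n = 4), a log2 fold change of 1.96 (SE 0.34, limma adjusted p = 0.0197).

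Tnnc1, Tnnt1 and Myl3, a ventricular and slow light chain, moved together, and the 250 bases before their start sites are shown beside those of Trim63, which fell. The sequences are from RefSeq on GRCm38.p6, 5′ to 3′ along the strand of the gene. They lie at chr14:31208062-31208311 (plus strand) for Tnnc1, chr7:4515976-4516225 (minus strand) for Tnnt1, chr9:110763428-110763677 (plus strand) for Myl3 and chr4:134314870-134315119 (plus strand) for Trim63. Capitals mark the E-box CANNTG, which reads the same on both strands and is the class of site that myogenic factors bind, and the MCAT element CATTCC on either strand, here also as GGAATG.
Tnnc1: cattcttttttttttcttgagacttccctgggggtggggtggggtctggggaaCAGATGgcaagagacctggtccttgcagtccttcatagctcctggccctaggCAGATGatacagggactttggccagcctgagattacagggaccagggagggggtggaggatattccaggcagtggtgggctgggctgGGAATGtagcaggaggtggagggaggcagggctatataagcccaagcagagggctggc
Tnnt1: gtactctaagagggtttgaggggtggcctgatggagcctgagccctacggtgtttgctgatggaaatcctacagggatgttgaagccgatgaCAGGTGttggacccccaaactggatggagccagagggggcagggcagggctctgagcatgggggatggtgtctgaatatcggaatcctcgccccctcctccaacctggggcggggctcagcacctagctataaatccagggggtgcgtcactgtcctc
Myl3: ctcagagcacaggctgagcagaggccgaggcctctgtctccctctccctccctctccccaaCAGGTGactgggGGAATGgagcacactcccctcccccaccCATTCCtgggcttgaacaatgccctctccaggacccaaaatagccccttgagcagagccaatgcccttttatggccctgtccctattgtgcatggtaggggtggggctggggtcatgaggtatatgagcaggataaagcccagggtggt
Trim63: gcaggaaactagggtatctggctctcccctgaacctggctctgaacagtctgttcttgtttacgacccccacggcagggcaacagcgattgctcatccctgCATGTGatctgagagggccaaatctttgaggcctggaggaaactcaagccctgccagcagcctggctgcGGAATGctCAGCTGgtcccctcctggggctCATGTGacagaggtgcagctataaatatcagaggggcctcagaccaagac
Tnnc1 held 2 E-boxes and 1 MCAT element, Tnnt1 1 E-box, Myl3 1 E-box and 2 MCAT elements, and Trim63 3 E-boxes and 1 MCAT element. None of the marked sites overlapped another. A MEF2 site was also searched and was in none of the 4. Among 32851 windows of this length over all genes, 66.2% held an E-box, 12.6% an MCAT element and 2.92% a MEF2 site. Of the 10 slow-fibre genes that rose, 5 had a single window in the table, and those not shown, Myh7b and Myl6b, held 1 E-box and 0 MCAT elements each. These matches describe letters in a window and are no evidence of binding.

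The slow myosins rose with the troponins. Myh7, the slow myosin heavy chain, had 25.8, 53.2, 9.37 and 14.1 FPKM at 14 d and 179, 158, 86.3 and 93.8 at 28 d. Its ratio of means was 5.05 with a log2 fold change of 2.51 (SE 0.47, limma adjusted p = 0.0247). The groups did not overlap, although sample b of 14 d stood well above the other 3. Myl2, the slow regulatory light chain, went from 87.0 ± 37.7 to 315 ± 83.6 FPKM (log2 fold change 1.92, SE 0.31, limma adjusted p = 0.0139). Myl3 had 81.4, 154, 45.4 and 58.1 FPKM at 14 d and 308, 269, 161 and 182 at 28 d (log2 fold change 1.54, SE 0.35). Its limma adjusted p of 0.0494 was close to the threshold. The call was lost on TPM (0.0551), with no variance trend (0.0583) and with no filter on low values (0.112). Tpm3, the slow tropomyosin, rose by 1.66 on the log2 scale (SE 0.34, limma adjusted p = 0.032), from 40.0 ± 20.6 to 119 ± 31.4 FPKM. Atp2a2, the calcium pump of slow and cardiac muscle, rose by 1.29 (SE 0.26, limma adjusted p = 0.0329), from 66.0 ± 22.1 to 162 ± 47.8 FPKM. The calls of Tpm3 and Atp2a2 were each lost in 6 of the 8 fits with 1 sample left out, that of Myl3 in 7 and that of Myh7 in 4. Those of Tpm3, Atp2a2 and Myh7 were also lost with no filter on low values. Myl6b (log2 fold change 1.27) and Myh7b (0.60) also passed. Tpm3-rs7, a retrocopy of Tpm3, rose as well, from a mean of 5.67 to 13.1 FPKM, and reads of the pair may be split between them.

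In the list of 18 slow-fibre genes, 10 were higher and 1 lower, against 0.568% and 0.52% of all tested genes, with a median log2 fold change of 1.05. The member that fell was Ankrd2, a stretch-responsive ankyrin repeat protein of slow muscle. Casq2, the cardiac and slow calsequestrin (27.9 ± 5.86 and 50.5 ± 13.2 FPKM), and Sln, the pump inhibitor sarcolipin (789 ± 379 and 1176 ± 44.6 FPKM), did not pass. At 21 d the means were 79.9 FPKM for Tnnc1, 20.8 for Tnni1, 22.2 for Myh7 and 113 for Myl2, within the range of 14 d. For 7 of the 10 genes every sample of 28 d was above every day 0 sample, and for Myl2, Myl3 and Myh7b the ranges overlapped. Myl3, for example, spanned 161 to 308 FPKM at 28 d and 119 to 313 at day 0.

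**Figure D2:**
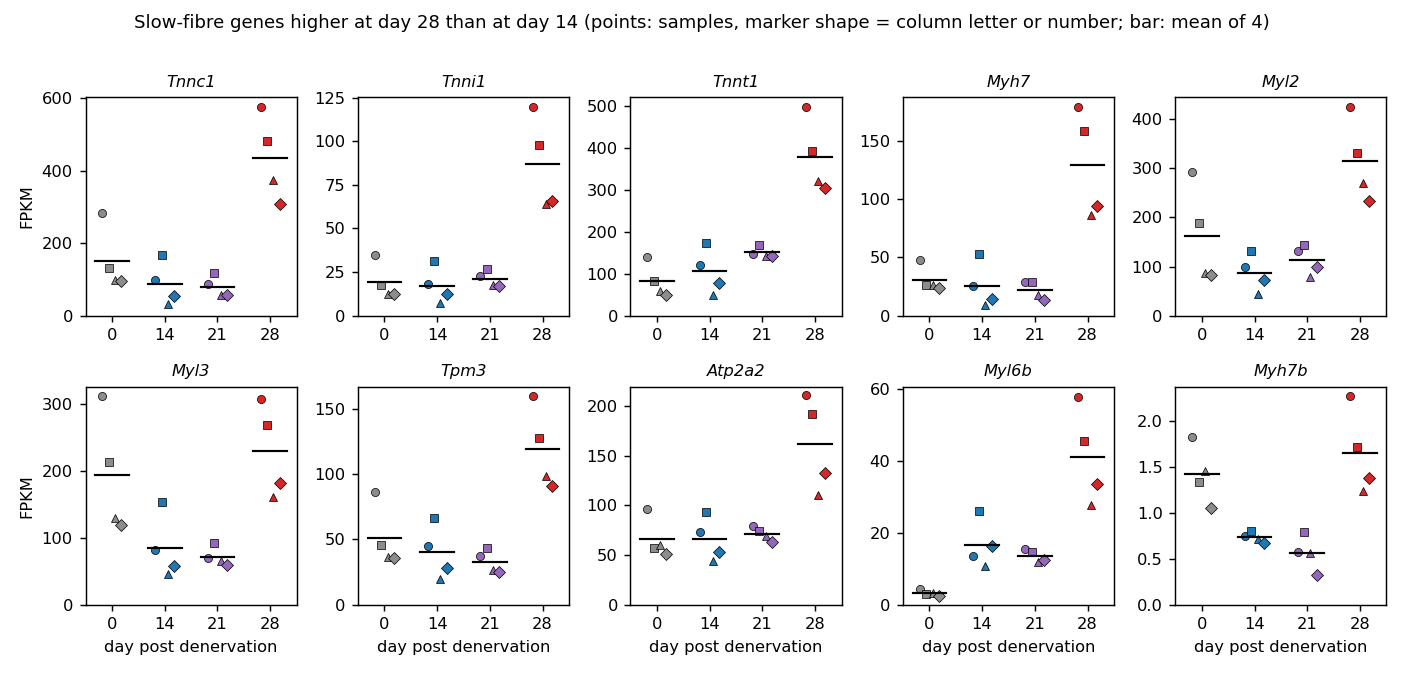
FPKM of the 10 slow-fibre genes higher at 28 d, by day post denervation (linear axes from 0). Each point is a sample, the marker shape gives its column letter (at day 0, its number) and the bar is the mean of 4. The 4 samples of 28 d lie above the 4 of 14 d in every panel.

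The samples of a day differed in the slow genes as a group. Sample b had the highest value of the 4 at 14 d for all 10 genes, sample c the lowest for 9, and sample a had the highest at 28 d for all 10. At day 0 the first sample was likewise the highest for all 10. The FPKM summed over the 10 genes was 576, 900, 262 and 386 in samples a to d of 14 d, and 2536, 2097, 1517 and 1448 in samples a to d of 28 d. It was 620, 713, 488 and 489 at 21 d, and 1301, 767, 516 and 473 in the 4 day 0 samples. Samples a and b, or the first pair at day 0, were thus above the other pair on each of these days, and the 10 genes, which share this spread, are not separate pieces of evidence. With sample a or sample b of 28 d left out, 3 of the 18 slow-list genes passed limma's test (Tnni1, Myl2 and Ankrd2), against 11 with all samples. The number was 5 without sample c or sample d of 14 d and 6 without its sample a. The log2 fold change of Tnnc1 over the 8 fits with 1 sample left out was 2.13 to 2.93, and that of Myh7 was 2.15 to 2.95.

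The fast-fibre genes showed little change beyond Myh1. Myh1, the type IIx myosin heavy chain, had 458, 454, 401 and 535 FPKM at 14 d and 715, 806, 1046 and 1105 at 28 d. Every sample of 28 d was above every sample of 14 d, and Myh1 rose by 0.97 on the log2 scale (SE 0.15, limma adjusted p = 0.0112). It was already at 854 FPKM at 21 d, against 500 at day 0. In the list of 16 fast-fibre genes, 1 was higher and 0 lower, against 0.568% and 0.52% of all tested genes. The median log2 fold change of the list was -0.18. For Myh4, the type IIb chain, the difference was -0.17 in log2 (limma adjusted p = 0.622), and for Myh2, the type IIa chain, -0.21 (limma adjusted p = 0.411). The fast calcium pump gene Atp2a1 (-0.30, limma adjusted p = 0.167) and Actn3, the actinin of fast fibres (-0.43, limma adjusted p = 0.0753), were lower in all 4 samples of 28 d without passing. The Myh genes of the fast cluster are near copies of each other, so the authors' counting may split reads among them.

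FPKM is a level per length, so the 4 adult heavy chains could be set against each other. Myh7 made up 0.61%, 1.31%, 0.219% and 0.392% of their sum in samples a to d of 14 d and 4.59%, 3.46%, 1.99% and 2.35% at 28 d. Myh1 made up 11.6% ± 2.35 at 14 d and 21.9% ± 4.84 at 28 d. Myh2 stood at 15.1% ± 2.23 and 12.6% ± 2.27, and Myh4 at 72.7% ± 4.22 and 62.3% ± 5.42 (SD, n = 4). Myh7 and Myh1 did not overlap between the days, whereas Myh2 did, and Myh4 did not, with 68.9% to 78.5% at 14 d and 55.5% to 68.7% at 28 d. These shares were chosen after the values were seen and were not tested.

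**Figure D3:**
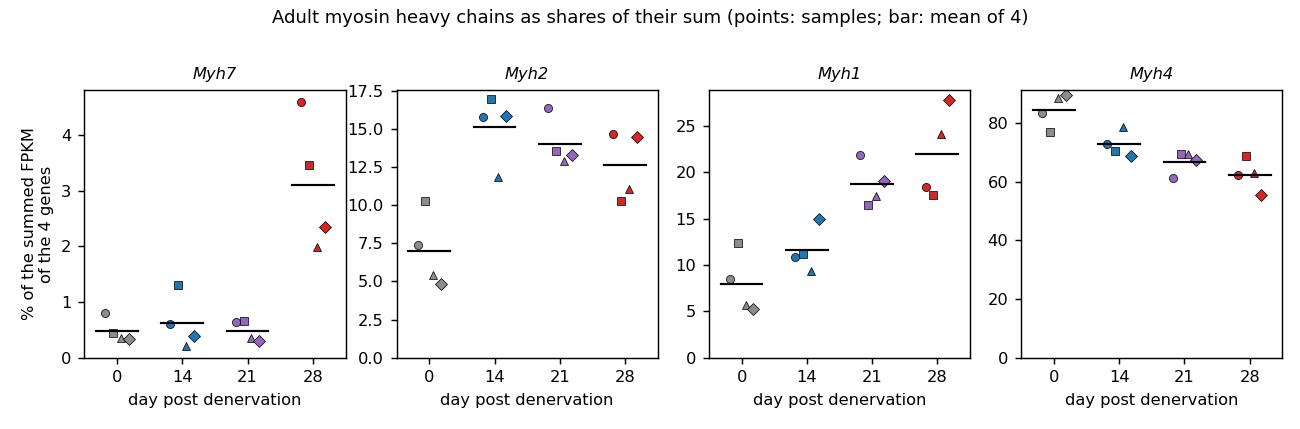
Share of each adult myosin heavy chain gene in the summed FPKM of the 4 (percent, linear axes from 0) by day post denervation. Points are samples and bars are means of 4. At 28 d Myh7 lies above all samples of the other days and Myh4 below all samples of 14 d.

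Among developmental and cardiac sarcomere genes, 2 of 14 were higher and 0 lower, against 0.568% and 0.52% of all tested genes. Their median log2 fold change was 0.28. Tnnt2, the cardiac and embryonic troponin T, had 5.68, 6.52, 4.98 and 6.46 FPKM at 14 d and 14.7, 12.9, 12.3 and 10.4 at 28 d, a log2 fold change of 0.97 (SE 0.11, limma adjusted p = 0.00314). Its groups did not overlap, and its mean was 0.468 at day 0. Actc1, the cardiac actin, had 9.85, 14.7, 19.4 and 26.7 FPKM at 14 d and 37.1, 38.4, 71.4 and 43.9 at 28 d (log2 fold change 1.42, SE 0.29, limma adjusted p = 0.0338). The highest of 14 d was below the lowest of 28 d, but the call was lost in 7 of the 8 fits with 1 sample left out. The mean of Actc1 was 47.7 FPKM at 28 d and 51.7 at day 0. With no fold threshold, limma called 1.44% of all tested genes higher and 2.21% lower. By that rule, the embryonic myosin gene Myh3 fell by 0.45 on the log2 scale (limma adjusted p = 0.012) while the perinatal Myh8 rose by 0.53 (limma adjusted p = 0.0386). Nes, which encodes the filament protein nestin, also rose by 0.53, and Myl4, the embryonic light chain, fell by 0.35. These members were named after their values were seen.

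The main ubiquitin ligase gene of atrophy fell. Trim63 encodes MuRF1, which tags proteins of the thick filament. It had 114, 138, 154 and 112 FPKM at 14 d and 52.9, 52.5, 49.7 and 62.2 at 28 d, so that every sample of 28 d was far below every sample of 14 d. The mean at 14 d was 2.38 times that at 28 d (log2 fold change -1.23, SE 0.11, limma adjusted p = 0.00153), and the means were 64.8 at 21 d and 91.4 at day 0. Asb2, a ligase subunit that targets filamins, fell by 1.12 on the log2 scale (SE 0.17, limma adjusted p = 0.0111), from 54.0 ± 13.3 to 23.9 ± 4.04 FPKM, and was at 183 at day 0. Fbxo32, which encodes Atrogin-1, had 0.694, 0.52, 1.62 and 0.88 FPKM at 14 d and 1.22, 2.00, 0.65 and 1.11 at 28 d. These ranges overlapped, and the limma adjusted p of Fbxo32 was 0.671 with a log2 fold change of 0.22 (SE 0.21).

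Of the 25 muscle ubiquitin ligases tested, 0 were higher and 2 lower, against 0.52% of all tested genes lower, with a median log2 fold change of -0.01. Median-ratio scaling called 1 of the 25 higher and 2 lower. Dropping the fold threshold, Trim54 (-0.54), Klhl40 (-0.49), Fbxo31 (-0.34) and Fbxo40 (-0.33) also fell, while Klhl41, which stabilises the sarcomere, rose by 0.57 in log2 (limma adjusted p = 0.00206). None of the 33 proteasome subunits reached the fold, their median being -0.11. Without the fold threshold, where 2.21% of all tested genes were lower and 1.44% higher, 6 of the 33 subunits were lower and 0 higher, 5 of them (Psmd2, Psmd4, Psmd6, Psmd7 and Psmd11) parts of the regulatory particle, by -0.22 to -0.25. The other, Psme4, which encodes an activator that caps the core, fell by 0.44. Of 27 autophagy genes 0 were called, with a median of -0.05, and without the fold threshold 4 were lower, led by Gabarapl1 (-0.45) and the cargo receptor gene Sqstm1 (-0.35). Of 25 lysosomal genes 1 was lower, Npc1, the lysosomal cholesterol exporter, by -0.60 (limma adjusted p = 0.00966), at the edge of the fold threshold, which it missed with median-ratio scaling (-0.58). The lysosomal list had a median of -0.13, and Ctsd and Gaa were also lower without the fold threshold.

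Regulators that respond to denervation also fell at some members. Cdkn1a encodes the cell cycle inhibitor p21. It had 164, 142, 99.1 and 98.2 FPKM at 14 d and 43.0, 45.4, 36.0 and 39.3 at 28 d, with 55.1 at 21 d and 3.20 at day 0. The groups did not overlap and the mean at 14 d was 3.08 times that at 28 d (log2 fold change -1.57, SE 0.17, limma adjusted p = 0.00252). Sik1, a kinase that acts on class II histone deacetylases, fell by 0.87 in log2 (SE 0.09, limma adjusted p = 0.00254), from 21.1 ± 2.17 to 11.1 ± 1.17 FPKM. Ankrd2 fell by 0.86 (SE 0.13, limma adjusted p = 0.012), from 484 ± 50.3 to 270 ± 51.0 FPKM. Of the 20 regulators tested, 0 were higher and these 3 lower (0.52% of all tested genes were), with a median of 0.04. Without the fold threshold the myogenic factor gene Myog rose by 0.47, while Myf6 fell by 0.43 and Myf5 by 0.45. Id1, which encodes an inhibitor of such factors, rose by 0.46.

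**Figure D4:**
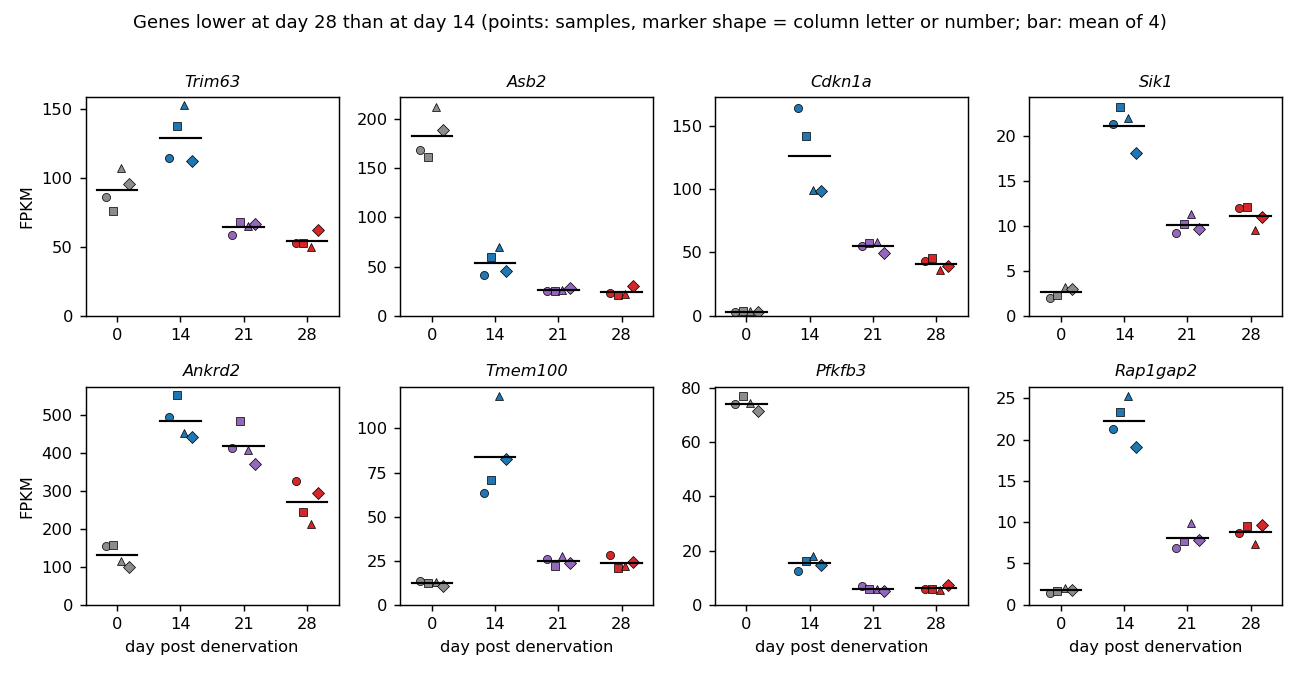
FPKM of 8 genes lower at 28 d than at 14 d, by day post denervation (linear axes from 0, points are samples, bars are means of 4). Trim63, Asb2, Cdkn1a, Tmem100 and Pfkfb3 are already near their level of 28 d at 21 d, and Ankrd2 is not.

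In the main fit, the genes of the neuromuscular junction stayed within the threshold. None of the 18 acetylcholine receptor and junction genes was called, and their median log2 fold change was -0.01. With median-ratio scaling 1 of the 18 passed as higher. Chrna1, the receptor's alpha subunit, had 192 to 230 FPKM at 14 d and 186 to 228 at 28 d, against a mean of 3.56 at day 0. Chrng, the fetal gamma subunit, had 44.5 to 51.0 and 43.2 to 63.1 FPKM, ranges that overlapped. Without the fold threshold Ncam1, the adhesion molecule of denervated fibres, rose by 0.57 in log2 (limma adjusted p = 0.00314), from 6.29 ± 0.212 to 9.87 ± 0.794 FPKM, and Musk, the kinase that clusters receptors, fell by 0.24 (limma adjusted p = 0.0361).

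Other genes that fell most had varied roles. Tmem100, a membrane protein gene induced by BMP signals in endothelium, had 63.5, 70.9, 118 and 82.6 FPKM at 14 d and 28.2, 20.9, 21.8 and 24.4 at 28 d. The groups did not overlap, and Tmem100 fell by 1.74 on the log2 scale (SE 0.18, limma adjusted p = 0.00244) to a mean near that of 21 d, 24.8. Orm2, an acute phase protein gene, had 5.31 ± 1.41 FPKM at 14 d and 1.39 ± 0.322 at 28 d (log2 fold change -1.38, limma adjusted p = 0.00433), and was listed at 0 in all day 0 samples. Rap1gap2, which switches off the GTPase Rap1, fell by 1.25 (limma adjusted p = 0.00137). Kcne1l, a potassium channel subunit gene, fell by 1.16 (limma adjusted p = 0.0109), and Gm1141 by 1.29 (limma adjusted p = 0.00545). The pseudogene Fkbp1a-ps2 fell by 1.52 (limma adjusted p = 0.0281), a call lost in 4 of the 8 fits with 1 sample left out, and may share reads with its parent gene. Gm24187, Mir1970 and Gm27514 are short microRNA genes with 2 to 10 fragments per sample at 14 d and 0 to 4 at 28 d, at or near a floor of 3 fragments, so no fold is given for them.

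Energy metabolism changed at single genes. Pfkfb3, whose product makes the activator of phosphofructokinase, fell by 1.21 on the log2 scale (SE 0.11, limma adjusted p = 0.00161), from 15.3 ± 2.33 to 6.05 ± 0.734 FPKM, and was at 74.3 at day 0. Tpi1, a glycolytic isomerase gene, rose by 0.62 (SE 0.08, limma adjusted p = 0.00682), from 136 ± 9.20 to 210 ± 22.2 FPKM, and was at 784 at day 0. Of 32 glycolysis and glycogen genes these 2 were called, 1 in each direction, against 0.568% of all tested genes higher and 0.52% lower. The list had a median of -0.07. None of 36 fatty acid oxidation and TCA cycle genes (median -0.01), of 66 nuclear genes for respiratory chain subunits (median 0.03) or of 17 mitochondrial regulators (median -0.01) was called. Without the fold threshold Esrrg, a nuclear receptor of oxidative muscle, rose by 0.56 in log2 (limma adjusted p = 0.00799).

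Of the 13 protein genes of the mitochondrial genome, 1 was higher and 0 lower, against 0.568% and 0.52% of all tested genes. The 13 summed to 54810 to 69870 FPKM at 14 d and 70000 to 88670 at 28 d, ranges that nearly met, against 108600 to 136500 at day 0. Their median log2 fold change was 0.40, and 12 of the 13 were above 0. Only mt-Co3 was called, with 150, 112, 170 and 114 FPKM at 14 d and 243, 218, 214 and 178 at 28 d (log2 fold change 0.65, SE 0.15, limma adjusted p = 0.0441). The call was lost in 6 of the 8 fits with 1 sample left out, and also on TPM, with quantile normalization, with no variance trend, with no filter and in the fit of all 32 samples (limma adjusted p up to 0.227). The nuclear pseudogene Gm28661 rose from a mean of 142 to 224 FPKM, and since it is a copy of mitochondrial sequence, the value of mt-Co3 is uncertain. Because FPKM divides by the total of the sample, a larger mitochondrial share lowers the values of the other genes.

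Among stress response genes, Mthfd2, a folate enzyme of mitochondria, had the smallest adjusted p of the 12 top genes that rose. It had 4.25, 4.18, 3.60 and 4.11 FPKM at 14 d and 11.7, 14.4, 15.3 and 11.7 at 28 d, with 7.61 at 21 d and 1.76 at day 0. The groups lay far apart, and the log2 fold change was 1.5 (SE 0.10, limma adjusted p = 0.000601). Slc7a5, an amino acid transporter gene, rose by 0.75 (SE 0.11, limma adjusted p = 0.00891). Both belong to a list of 23 genes of the Atf4 stress response, of which 2 were higher and 0 lower, against 0.568% and 0.52% of all tested genes, with a median of 0.09. By the test alone, which called 1.44% of all genes higher and 2.21% lower, Ddit3 rose by 0.35 in log2, and Eif4ebp1 and Gars fell by 0.36 and 0.22. Of 27 heat shock and chaperone genes 0 were called (median 0.06), of 24 antioxidant genes 0 (median -0.01) and of 86 cytosolic ribosomal protein genes 0 (median 0.03).

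Few growth signalling genes were called, as were few of all tested genes (0.568% higher and 0.52% lower). Grb10, an adaptor that restrains insulin and mTOR signalling, rose by 0.62 on the log2 scale (SE 0.10, limma adjusted p = 0.0151), from 9.57 ± 0.528 to 15.3 ± 2.45 FPKM. It was the only one called of 27 insulin, FoxO and mTOR genes (median -0.10), and the call was lost in 3 of the 8 fits with 1 sample left out. Without the fold threshold 6 of the 27 were lower, against 2.21% of all tested genes, and these were Akt1, Akt2, Foxo1, Eif4ebp1, Tsc2 and Igfbp5, by -0.27 to -0.57. The list summed to 872 to 1089 FPKM at 14 d and 720 to 820 at 28 d, which did not overlap. Sums of other lists also separated, such as proteasome, ion channel, clock, and heat shock and chaperone genes. The last had 5504 to 5788 FPKM at 14 d and 4643 to 5003 at 28 d, and a sum weighs its highest genes most. Gdf5, a BMP ligand gene known to be induced on denervation, had 4.59, 4.67, 4.76 and 4.83 FPKM at 14 d and 3.16, 2.31, 2.16 and 2.61 at 28 d. The days did not overlap, and Gdf5 was lower by 0.69 in log2 (SE 0.09, limma adjusted p = 0.00529), the only call among 28 myostatin, TGF-beta and BMP genes (median -0.02). Egr3, an early gene active in muscle spindles, rose by 1.06 in log2 (SE 0.20, limma adjusted p = 0.0247), the only call among 19 immediate early genes (median 0.08). Megf10, a satellite cell receptor gene, rose by 0.90 (SE 0.16, limma adjusted p = 0.0213), the only call among 17 satellite cell and fusion genes (median 0.08). Both Egr3 and Megf10 lost the call in 3 of the 8 fits with 1 sample left out and with no filter on low values (limma adjusted p of 0.061 and 0.0535).

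Of 26 calcium handling and triad genes Atp2a2 was the only call (median -0.08), against 0.568% of all tested genes called higher. None of 23 muscle ion channel genes (median -0.06), 20 dystrophin complex genes (median -0.03), 18 circadian clock genes (median -0.08), 12 polyamine genes (median -0.03) or 27 cell cycle genes (median 0.02) was called. By the test alone the clock genes Nr1d1 (-0.51), Cry2 (-0.38) and Bhlhe40 (-0.38) were lower and Nr1d2 (0.24) higher in log2. The hour of sampling is not given in the sources used here.

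Other genes among the 12 that rose most were low or absent at day 0. Tceal6 had 0, 0.517, 0.105 and 0.378 FPKM at 14 d and 5.83, 3.79, 2.50 and 1.95 at 28 d, which did not overlap (log2 fold change 1.80, SE 0.25, limma adjusted p = 0.00765). Cntn2, an axonal adhesion protein gene, rose from 0.485 ± 0.481 to 2.70 ± 0.258 FPKM (log2 fold change 1.36, SE 0.18, limma adjusted p = 0.00711). Bpifb1, a secreted lipid-binding protein gene, rose from 1.41 ± 0.721 to 5.08 ± 1.23 FPKM (log2 fold change 1.37, SE 0.22, limma adjusted p = 0.0133) and was listed at 0 in all day 0 samples.

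The molecules of the inflammasome, which the study measures, were looked at singly. Nlrp3, the sensor, had 0.295, 0.326, 0.246 and 0.341 FPKM at 14 d and 0.44, 0.308, 0.0895 and 0.267 at 28 d, which rested on 6 to 30 fragments per sample. These overlapped, with a log2 fold change of -0.04 (SE 0.09, limma adjusted p = 0.893). Il18, the cytokine that caspase 1 matures, had 1.66, 2.90, 2.73 and 2.04 FPKM at 14 d and 4.16, 3.87, 4.58 and 3.98 at 28 d. Those groups did not overlap (log2 fold change 0.64, SE 0.12, limma adjusted p = 0.0263), though 6 of the 8 fits with 1 sample left out lost the call, as did the fit of all 32 samples (limma adjusted p = 0.076). The adaptor gene Pycard (-0.02, SE 0.06), Casp1 (0.01, SE 0.12), the pore-forming Gsdmd (0.08, SE 0.08) and the cytokine gene Il1b (0.13, SE 0.10) overlapped between the days. They were not called, with limma adjusted p of 0.917, 0.987, 0.702 and 0.599. The means of Il1b were 0.26 FPKM at 14 d and 0.382 at 28 d, a ratio of 1.47, on 5 to 12 and 6 to 18 fragments per sample. At the levels of Nlrp3, Pycard and Il1b at 14 d, even a complete loss would have missed the 1.5-fold threshold on log2(FPKM + 1). The reference gene Gapdh had 82.7 ± 10.5 and 107 ± 15.6 FPKM (log2 fold change 0.36, limma adjusted p = 0.145). Of 19 inflammasome and pyroptosis genes 1 was higher and 0 lower (median 0.05), against 0.568% and 0.52% of all tested genes. Of 26 apoptosis genes 0 were called (median -0.03).

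Markers of other cell types were counted on each list. Among them, only the tendon and satellite cell lists held called genes. Tnmd, a tendon membrane protein gene, had 24.5, 31.1, 13.8 and 19.7 FPKM at 14 d and 43.7, 48.4, 40.1 and 55.8 at 28 d (log2 fold change 1.09, SE 0.21, limma adjusted p = 0.0269). Chad, a cartilage and tendon matrix gene, rose by 0.99 (SE 0.19, limma adjusted p = 0.0283), and neither gene overlapped between the days. Day 0 means were 36.2 FPKM for Tnmd and 26.3 for Chad, against 47.0 and 27.2 at 28 d. Leaving out 1 sample ended the call of Chad in 6 of 8 fits and that of Tnmd in 4, and the fit of all 32 samples also ended that of Chad (limma adjusted p = 0.136). Scx, the transcription factor of the tendon lineage, went the other way, from 57.6 ± 7.12 to 34.5 ± 2.86 FPKM (log2 fold change -0.72, SE 0.09, limma adjusted p = 0.00545), and was at 4.21 at day 0. Of 10 tendon markers 2 were higher and 1 lower, against 0.568% and 0.52% of all tested genes, 9 of the 10 were above 0, and the median was 0.64. With 1 sample left out 1 to 5 of the 10 passed, and under the other settings 1 (no filter, or an adjusted p under 0.01) to 7 (limma-voom), with 5 after median-ratio scaling. The summed level of the list was 256 to 389 FPKM at 14 d and 313 to 479 at 28 d, and none of its markers was at 0. Sample b of 14 d was the highest of its day for Tnmd and Chad, as it was for the slow-fibre genes, whereas at 28 d sample d was the highest for both and sample a for the slow-fibre genes. The part of tendon in the results above was not tested.

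No gene was called among 26 macrophage markers (median -0.08), 11 T and NK cell markers (0.06), 5 B cell markers (0.42), 5 neutrophil markers (-0.10), 9 mast cell markers (-0.14), 17 endothelial markers (-0.15), 12 pericyte and smooth muscle markers (0.00), 14 fibro-adipogenic progenitor markers (-0.15), 21 Schwann cell and nerve repair genes (-0.12) or 6 red blood cell genes (0.04). The macrophage list summed to 759 to 1609 FPKM at 14 d and 934 to 1046 at 28 d, which overlapped. The pericyte and smooth muscle list summed to 1440 to 1543 FPKM at 14 d and 1125 to 1224 at 28 d, which did not overlap. That sum was mostly Des, the desmin gene, which muscle fibres also express and which went from 1296 ± 46.7 to 982 ± 42.0 FPKM (log2 fold change -0.40, limma adjusted p = 0.015). None of 17 adipocyte markers was called (median 0.04), although their sum went from 4314 to 6083 FPKM at 14 d to 6608 to 7383 at 28 d. That sum was mostly Car3, an enzyme that slow fibres also make, whereas Adipoq ranged from 14.2 to 55.5 FPKM at 14 d and from 13.4 to 56.9 at 28 d. None of 18 collagens (median -0.03), 33 matrix proteins and matrix enzymes (0.08), 24 interferon-stimulated genes (0.02), 21 MHC and immunoproteasome genes (0.00), 15 complement genes (-0.11) or 28 chemokines and cytokines (-0.03) was called.

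**Figure D5:**
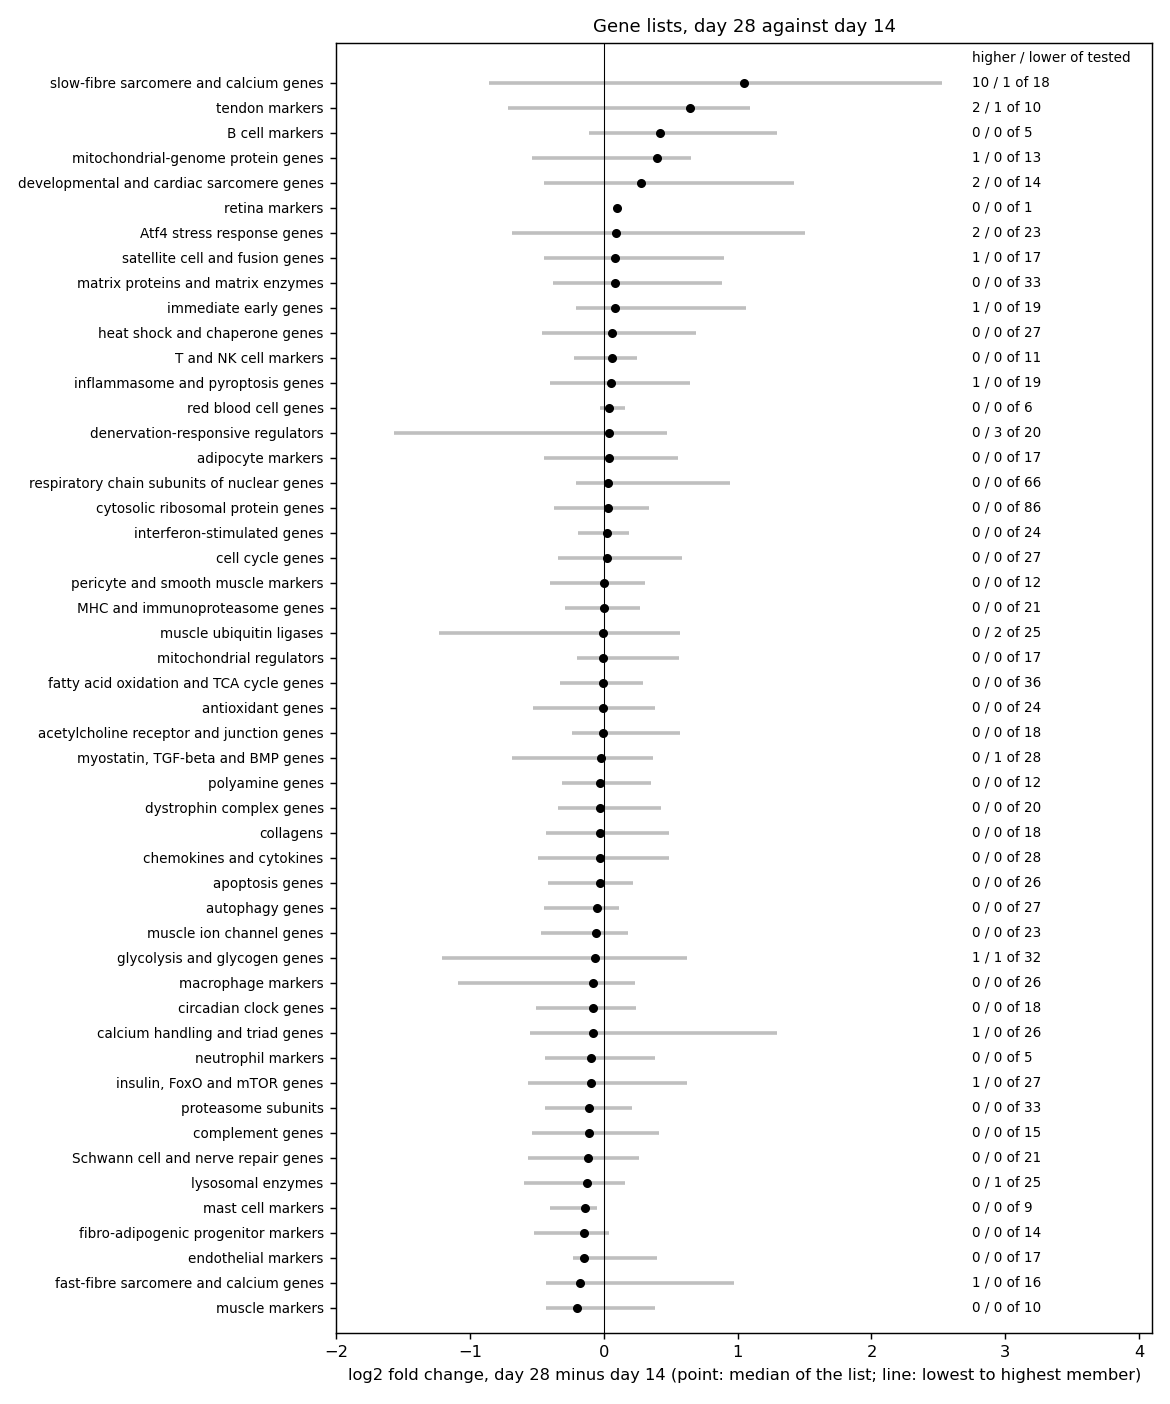
Log2 fold change (28 d minus 14 d) of the members of each of the 50 gene lists. The point is the median, the line runs from the lowest to the highest member, and the counts at the right give members higher and lower of those tested. The slow-fibre list has the highest median, 1.05. No gene is called in 34 of the lists, where 1.09% of all tested genes were called.

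Some values rest on genes that share exons with a neighbour, and whether the counting used strand is not given in the sources used here. Myh7 shares 484 exon bases with the antisense RNA Mhrt and 523 with Gm31251, Cdkn1a 273 with AC167363.2, Myh1 515 with Myhas, Gdf5 936 with Gm15557, and Pycard 485 with Gm45205. Such shared stretches were 511 bases for Npc1 with Rmc1, 186 for Fbxo32 with Gm15943, and under 100 for Myl2, Myl3, Atp2a2, Tpi1, Il1b and Gapdh. Reads of such pairs cannot be told apart without strand. For each of the genes whose samples did not overlap, the exact two-sided permutation test gave p = 0.0286, the smallest that 4 against 4 samples allow.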

How the data were processed

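GAS muscle RNA was sequenced by the authors at 8 time points. They deposited FPKM values, 1 per gene and sample, for 33397 genes. Per the submitters' processing notes, GRCm38, HISAT2 2.1.0, CASAVA and DESeq2 were used, with no order given, and the counting annotation is not given in the sources used here. The library kit named in the labels differs from that in the methods.

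For 33356 genes (99.9%), merged exon lengths of GENCODE mouse release M21 turned FPKM into fragments. In the 8 samples, 99.4% to 99.5% of values under 200 fragments were then within 0.1 of a whole number. A gene at 3 fragments or fewer was taken as at the floor, and counting error is the only error this covers.

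From there, log2(FPKM + 1) of the 8 samples of 14 and 28 d was fitted with limma 3.58.1 in R 4.3.3 (lmFit, eBayes with a variance trend), adjusted by Benjamini-Hochberg over all 18653 genes and called at an adjusted p under 0.05 and 1.5-fold. The step was tested on simulated data. Single genes also had an exact two-sided permutation test. Lists were described by counts and medians, with no test. Named genes were the 12 higher and 12 lower with the largest change, among called genes with separated groups and a mean FPKM of at least 1 on the higher day, up to 6 called members per list, and molecules the study measures, of which 1 is not reported here. Other named genes were chosen after their values were seen. The genes and the 50 lists were chosen with earlier results of these data known. Alternatives covered the pseudocount, filters, scalings, fits, thresholds and leaving out each sample, and limma-voom on the recovered fragments and a block by column letter were added after seeing the data. Python 3.11.15, numpy 2.4.6, pandas 2.3.3 and matplotlib 3.10.9 did the rest. Other assays of the study were not analysed here.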

Additional observations from a re-analysis of the deposited data

Results flagged for a closer look

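Among the named genes, 100 groups of 4 samples were examined for a sample far from the others by Dixon's 95% criterion, which chance alone passes in about 1 in 20 groups. It was met in 2. Bpifb1 had 6.91 FPKM in sample d of 28 d, against 4.28 to 4.72 in the other 3 samples of that day. Chad had 19.9 FPKM in sample b of 14 d, against values up to 11.5 in the others, and sample b was also the highest of its day for the 10 slow-fibre genes. Both genes kept their samples of 28 d above those of 14 d with these values included.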

How the results depend on the processing

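No named gene that passed the test changed direction under any setting run. The count of higher genes, 106, became 163 with a pseudocount of 0.1, 58 with no filter on low values, where more genes are tested, 269 with no fold threshold, 38 at an adjusted p under 0.01 and 206 with limma-voom on recovered fragments, a setting chosen after seeing the data. The count of lower genes, 97, became 152 on TPM, 413 with no fold threshold, 50 at an adjusted p under 0.01 and 160 with limma-voom. Leaving out 1 sample gave between 62 and 101 genes higher, and between 65 and 106 lower. The lowest counts of higher genes were 67 without sample c of 14 d, 64 without sample a of 28 d and 62 without sample b of 28 d. With no filter on low values, 3 of the 18 slow-fibre genes passed. Median-ratio scaling called 1 member higher in each of the junction, cell cycle and matrix protein lists, which had no call in the main fit. Of the called genes, 94 higher and 82 lower passed under all 4 rescalings, 99 and 91 with limma-voom, and 47 and 53 in all 8 fits with 1 sample left out. Actc1 and Myl3 lost the call in 7 of those 8 fits, Tpm3, Atp2a2, Chad, Il18, mt-Co3 and Gm24187 in 6, Myh7, Tnmd and Fkbp1a-ps2 in 4, Egr3, Megf10, Grb10 and Npc1 in 3, and Tnnc1, Tnnt1 and Tpi1 in 2, with an adjusted p up to 0.132 (Myl3), Npc1 and Tpi1 through the fold alone. In the fit of all 32 samples Chad (adjusted p = 0.136), Il18, Gm27514 and mt-Co3 lost it. Npc1 also missed the fold with mitochondrial genes left out of the total (-0.58). Trim63, Cdkn1a, Tmem100, Pfkfb3, Mthfd2, Tnni1, Myl2 and Myh1 kept it in all 8. The columns carry letters that are not tied to the replicate numbers of the labels. Same-letter samples of both days deviated from their means with r of 0.039 to 0.103 across genes, and sample b of 14 d was most like sample d of 28 d (0.145), so the letters were not taken to pair samples. A replicate block by letter, added after seeing the data, gave 97 higher and 86 lower genes, and of the named genes Il18 (adjusted p = 0.0537) and Fkbp1a-ps2 (0.0896) lost the call. Genes with few fragments, such as Nlrp3 and the microRNA genes, allow only large changes to be seen at this depth. The added 1 also shrinks the log2 change of weak genes, so the 1.5-fold threshold asks for a still larger change in them.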
